A study of Mus musculus with 6 samples.

Results

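Sox genes encode transcription factors with a DNA-binding HMG box, and 6 of them were examined here in presomitic cells made from mouse embryonic stem (ES) cells: Sox3 and Sox21 of the SoxB group, Sox4, Sox11 and Sox12, which form the SoxC group, and Sox9 of the SoxE group. The members were every probe set that the array's annotation assigns to one of these gene symbols, 24 of the 45101 probe sets on the array. Of these, 8 belong to Sox4, 6 to Sox11, 3 each to Sox12 and Sox9, and 2 each to Sox3 and Sox21. The genes were listed by name, with earlier results of these data known.

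The cells were E14 ES cells of the 129P2/OlaHsd background with a Venus reporter of Msgn1, named Msgn1RepV in the labels. They were plated on gelatin and differentiated in medium that held R-spondin3 at 10 ng/mL, Noggin at 200 ng/mL, DMSO at 0.5% and fetal bovine serum at 15%. Venus-positive cells were sorted on day 4 (3 biological replicates) and on day 3 (3 biological replicates), and the RNA of each sample was hybridised to 1 Affymetrix array. R-spondin3 potentiates Wnt signalling and Noggin blocks BMP ligands, and both groups carried the reporter and received all 4 additives. One ES cell line and one reporter gate were used throughout, and no unsorted or Venus-negative cells were measured here.

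Sox proteins bend DNA and usually act with partner factors, and members of one group can replace each other in many tissues. SoxB1 factors (Sox1, Sox2 and Sox3) maintain pluripotent and neural progenitor cells, and the SoxB2 factors Sox14 and Sox21 oppose them in the neural tube. SoxC factors are broadly expressed in embryonic progenitors, including mesenchyme and differentiating neurons, and mouse embryos that lack Sox4 and Sox11 have widespread defects of organ formation. Sox9 drives cartilage formation in the sclerotome, the part of the somite that builds the skeleton, and also acts in neural crest and notochord.

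Trimmed means of the deposited signals ran from 160.4 to 162.1 and medians from 24.6 to 26.1, and no further scaling was applied in the main fit. Median centring, tried as an alternative, gave 1233 genes higher and 1443 lower at day 4, against 1411 and 1318 in the main fit. Replicate 1 of day 4 had a 3′ to 5′ Gapdh ratio of 14.0, while day 4 replicates 2 and 3 had 3.19 and 2.63, and the 3 arrays of day 3 lay between 2.43 and 2.64. A high ratio is a sign of RNA that has lost its 5′ end. Results are therefore also given without that array where it moved them. All values below are MAS5 signals on a linear scale unless a log2 scale is named, and a signal of 13.5, the 40th percentile of all probe sets, was the lower level for testing. A gene or probe set is called under the level where its mean log2 signal over all 6 arrays was below it, and it was then not tested. Of the 24 member probe sets, 17 lay above that level and 7 did not.

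**Figure D1:**
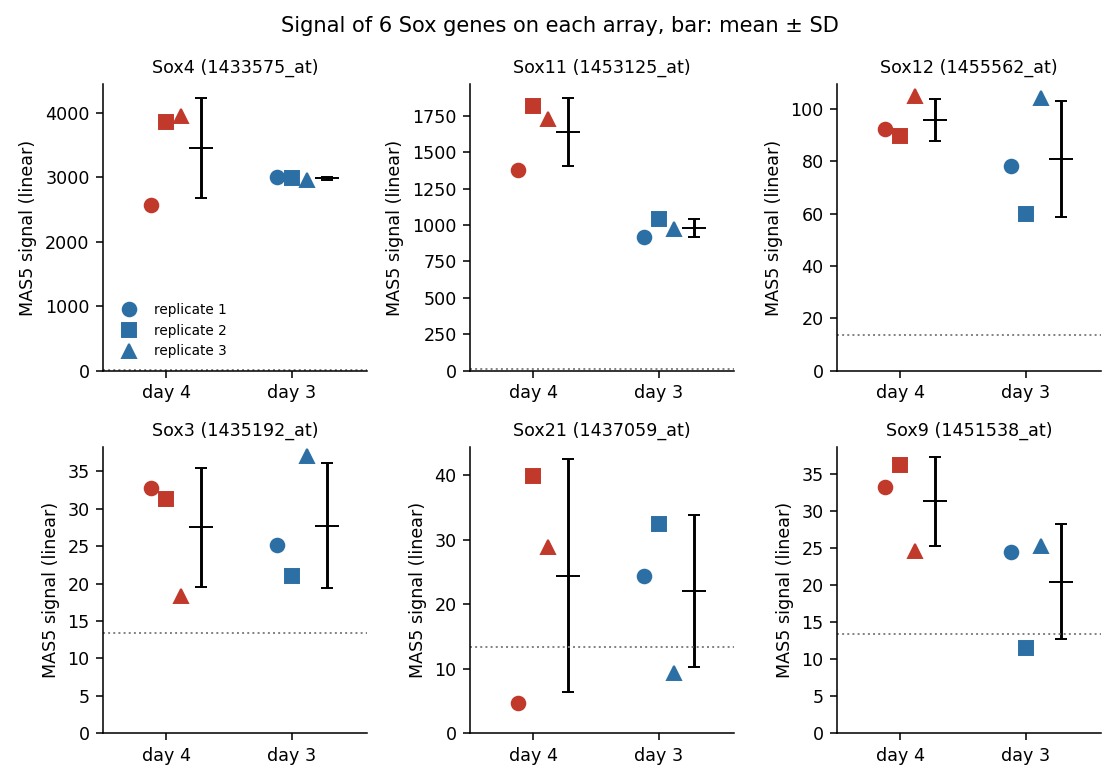
Signal of the 6 Sox genes on each array (y axis, linear MAS5 signal), 1 probe set per gene, day 4 left of day 3, with 1 symbol per replicate and bars for the mean ± SD of 3 arrays; the dotted line is the level of 13.5. The 3 day 4 arrays lie above the 3 day 3 arrays for Sox11 alone, and Sox4 is split by day 4 replicate 1.

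Sox11 was the member that changed at the gene level, and it was higher at day 4 than at day 3. Its signal was 1375, 1816 and 1725 on the day 4 arrays, against 918, 1043 and 975 on the day 3 arrays. Every day 4 array was thus above every day 3 array, as for 20.7% of all genes tested, with the smallest day 4 value on replicate 1. The means were 1639 ± 233 at day 4 and 979 ± 62.8 at day 3 (SD, n = 3 arrays each), a 1.66-fold difference. On the log2 scale the change was 0.74 ± 0.11 (SE; limma, adjusted p = 0.00172 over 12285 genes), and it was 0.86 without day 4 replicate 1. Of all genes tested, 22.2% changed in either direction and 11.5% were higher at day 4, and 5.78% had a log2 change as high as that of Sox11. The count of members was therefore 1 of 6 higher and 0 lower at the gene level. Since the cells were measured in bulk, a change in the share of cells that express a gene and a change in RNA per cell cannot be told apart.

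The 6 Sox11 probe sets, which were designed from 4 source sequences, all had a log2 change above 0, between 0.23 and 0.74. In the fit over 27026 probe sets, 3 of them were higher at day 4 and 0 lower, where 9.96% of all probe sets tested were higher and 7.78% lower. Probe set 1429051_s_at had 749, 866 and 781 on the day 4 arrays, against 507, 553 and 568 on the day 3 arrays, with no overlap (log2 change 0.56 ± 0.10, limma adjusted p = 0.00503). The _s_at suffix marks probes that can match more than one transcript. Probe set 1429372_at had 285, 415 and 394 on the day 4 arrays and 171, 248 and 268 on the day 3 arrays, again with no overlap. Its log2 change was 0.68 ± 0.20 (adjusted p = 0.0438, limma), and this call was lost without any single one of the arrays other than day 4 replicate 1 (adjusted p up to 0.131). Probe sets 1436790_a_at and 1453002_at did not pass, with log2 changes of 0.37 ± 0.13 and 0.45 ± 0.17 (adjusted p = 0.083 and 0.0979, limma), and passed without day 4 replicate 1 (0.45 and 0.57, adjusted p = 0.0194 and 0.0255). The smallest change was that of 1431225_at, at 83.1 ± 22.8 on day 4 and 69.6 ± 11.3 on day 3 (adjusted p = 0.543, limma). On 6 of the 6 Sox11 probe sets, day 4 replicate 1 was the lowest of the day 4 arrays.

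**Figure D2:**
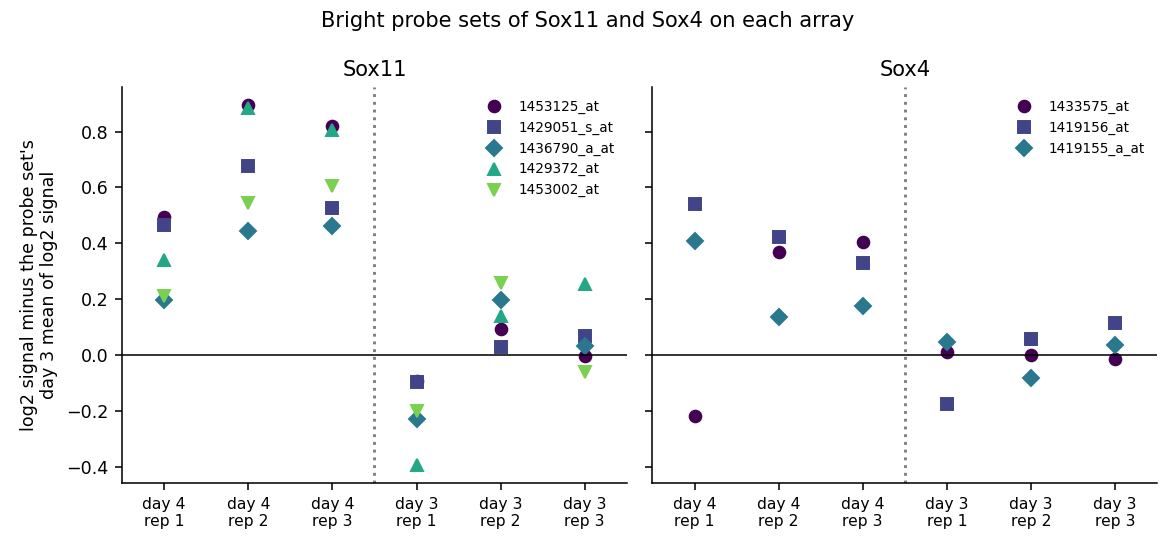
Log2 signal of each array minus the probe set's day 3 mean (y axis), for the 5 Sox11 and 3 Sox4 probe sets whose day 3 mean signal exceeds 100, with 1 symbol per probe set and the day 4 arrays on the left. Within each Sox11 probe set, the symbol of day 4 replicate 1 lies below those of the other day 4 arrays. In Sox4, 1 probe set lies below 0 on day 4 replicate 1 while the other 2 lie above it.

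Sox4, the SoxC factor best known for its roles in heart, lymphocyte and neuron development, gave different answers with different probe sets. The probe set that represented the gene, 1433575_at, had 2568, 3853 and 3955 on the day 4 arrays, against 3011, 2986 and 2961 on the day 3 arrays. The day 3 arrays lay within a narrow range, and the day 4 arrays lay on both sides of it, with replicate 1 below and replicates 2 and 3 above. The means were 3459 ± 773 at day 4 and 2986 ± 25.1 at day 3 (SD, n = 3 each). The log2 change of 0.19 ± 0.14 did not pass (limma, adjusted p = 0.383), and its 95% confidence interval ran from -0.13 to 0.50. Without day 4 replicate 1 the change was 0.39 and passed (adjusted p = 0.000337), and without day 4 replicate 2 or 3 it was 0.094 or 0.075.

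Another Sox4 probe set, 1419156_at, was higher at day 4 with all arrays in the fit. It had 785, 722 and 677 on the day 4 arrays and 478, 561 and 585 on the day 3 arrays, with no overlap. Its log2 change was 0.43 ± 0.11 (limma, adjusted p = 0.025), a 1.35-fold difference. The call was lost without day 4 replicate 2 or any single day 3 array (adjusted p = 0.0539 to 0.0764), and it was kept without day 4 replicate 1 (0.37, adjusted p = 0.0226). A probe set designed from the same source sequence, 1419155_a_at, had 576, 476 and 489 at day 4 against 448, 409 and 444 at day 3, and missed the threshold (0.24 ± 0.11, adjusted p = 0.157, limma). On both of these, day 4 replicate 1 was the highest day 4 array, whereas on 1433575_at it was the lowest. Over the 6 tested Sox4 probe sets, that array was the highest of its day on 3 and the lowest on 3. The part of RNA quality in this split was not tested.

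Of the other Sox4 probe sets, 1455867_at had a log2 change below 0, at -0.15 ± 0.17, with signals of 79.9 ± 3.50 at day 4 and 89.5 ± 17.2 at day 3. Probe sets 1449370_at and 1419157_at had wide intervals around changes of 0.17 and 0.32, and both turned below 0 without day 4 replicate 3 (-0.11 each). The 2 remaining Sox4 probe sets, 1458332_x_at and 1443778_at, lay under the level on both days, with day 4 means of 6.50 ± 4.91 and 4.26 ± 1.46 against day 3 means of 6.78 ± 3.93 and 2.68 ± 2.96. Sox4 as a gene thus had 1 of 6 tested probe sets higher and 0 lower, where 9.96% of all tested probe sets were higher, and that 1 call rested on single arrays as given above.

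Sox12, the third SoxC factor, which in mice can be deleted with little outward effect, was represented by 1455562_at. This probe set had 92.4, 89.7 and 105 on the day 4 arrays and 78.2, 59.9 and 104 on the day 3 arrays, and the days overlapped. Its log2 change was 0.28 ± 0.20 (limma, adjusted p = 0.359; 95% confidence interval -0.17 to 0.73). A second probe set of the gene, 1439754_at, had 82.1, 75.7 and 61.3 at day 4 and 48.0, 30.1 and 29.8 at day 3, with every day 4 array above every day 3 array. It was 2.07-fold higher at day 4 (log2 change 1.05 ± 0.23, limma adjusted p = 0.0153). It missed the threshold when day 4 replicate 2, day 3 replicate 2 or day 3 replicate 3 was removed (adjusted p = 0.0526 to 0.0655). The third, 1456882_at, was at 0.998 ± 0.349 on day 4 and 2.17 ± 1.24 on day 3, under the level on both days. The array's annotation does not say which transcripts each probe set reports, so the difference between the 2 tested Sox12 probe sets was not resolved.

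**Figure D3:**
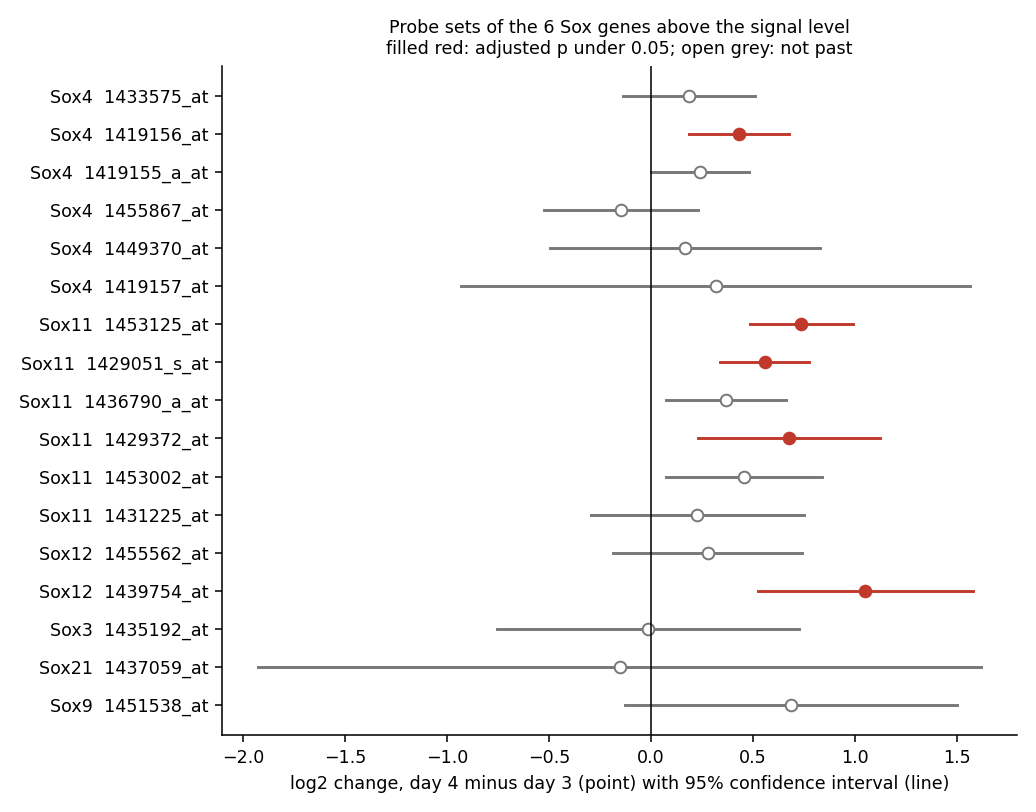
Log2 change, day 4 minus day 3 (x axis), of the 17 member probe sets above the level, with 95% confidence intervals from the fit over 27026 probe sets; filled red points passed an adjusted p of 0.05. The 5 that passed belong to Sox4, Sox11 and Sox12 and are all above 0, while Sox3, Sox21 and Sox9 have 1 point each.

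Of the 17 tested probe sets of all 6 members, 5 were higher at day 4 and 0 lower. Over all tested probe sets, 9.96% were higher and 7.78% lower. The 5 belong to the 3 SoxC genes, which also held most of the tested probe sets. Sox4 and Sox11 had 6 tested each and Sox12 had 2, against 1 each for Sox3, Sox21 and Sox9. The place of the 5 calls therefore does not set the SoxC genes apart from the other members. Leaving out single arrays moved the count from 5 to between 2 and 8, with 8 without day 4 replicate 1. Of all 24 member probe sets, 9 had every day 4 array above every day 3 array and 0 had the reverse, where these shares were 14.7% and 13.3% over all probe sets without a filter. Among the 17 tested, 7 were separated upward, where 20.8% of all tested probe sets were. Probe sets of 1 gene share their transcript, so these counts are not counts of independent events.

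At least 1 probe set of each SoxC gene was higher at day 4, but the probe sets that represented Sox4 and Sox12 did not pass. The 250 bases before the annotated starts of these 3 genes are shown, from RefSeq on GRCm38.p6, with the CCAAT box and the octamer in capitals. Starts were matched for 4 of the 6 members, the fourth being Sox21. All 3 genes lie on the minus strand, Sox4 at chr13:28953700-28953949, Sox11 at chr12:27342719-27342968 and Sox12 at chr2:152398047-152398296, and each sequence reads 5′ to 3′ toward the start.
Sox4: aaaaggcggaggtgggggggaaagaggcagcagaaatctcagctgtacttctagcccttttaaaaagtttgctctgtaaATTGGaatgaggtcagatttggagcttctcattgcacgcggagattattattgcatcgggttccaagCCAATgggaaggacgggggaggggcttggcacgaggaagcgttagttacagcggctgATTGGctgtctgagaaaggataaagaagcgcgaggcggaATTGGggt
Sox11: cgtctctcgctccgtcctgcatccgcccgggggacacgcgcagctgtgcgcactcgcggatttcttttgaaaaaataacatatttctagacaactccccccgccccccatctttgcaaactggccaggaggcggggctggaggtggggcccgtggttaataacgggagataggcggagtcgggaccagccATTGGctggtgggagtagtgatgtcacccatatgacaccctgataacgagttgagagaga
Sox12: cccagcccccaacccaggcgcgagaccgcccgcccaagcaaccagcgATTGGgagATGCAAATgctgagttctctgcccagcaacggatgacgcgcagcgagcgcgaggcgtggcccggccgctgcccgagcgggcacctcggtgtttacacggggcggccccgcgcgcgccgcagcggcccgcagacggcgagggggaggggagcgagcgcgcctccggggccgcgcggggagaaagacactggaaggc
The CCAAT box, the letters CCAAT on either strand, was found 4 times before Sox4, 1 time before Sox11, 56 to 60 bases from the start, and 1 time before Sox12, 199 to 203 bases from it. It is in 34.5% of 27025 promoters of the same length. The octamer ATGCAAAT, the sequence that POU factors such as Oct4 recognise, was found before Sox12 only, 188 to 195 bases from the start and without overlap with the CCAAT box, and is in 1.61% of promoters. The GC box, GGGCGG on either strand, was found before Sox11 (2 matches) and Sox12 (3 matches, of which 2 overlap) and is in 32.9% of promoters. The letters ACAAT, a core of the Sox recognition sequence, and TATAAA were in none of the 3 windows, and in 28.3% and 13% of promoters on either strand. The Sox21 window at chr14:118237031-118237280 held none of the 5 motifs. A match in these letters shows no binding, and no binding was measured.

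Sox3, the SoxB1 gene of the X chromosome, lay near the lower level and did not pass. Its probe set 1435192_at had 32.8, 31.4 and 18.4 on the day 4 arrays and 25.2, 21.0 and 37.1 on the day 3 arrays, so the days overlapped over nearly their whole range. The log2 change was -0.02 ± 0.33 (limma, adjusted p = 0.978; 95% confidence interval -0.75 to 0.72). That interval reaches about as far in either direction as the change of Sox11. Without day 4 replicate 3 or day 3 replicate 3 the change was 0.25 or 0.21. The other Sox3 probe set, 1450485_at, was under the level on both days, at 4.83 ± 3.70 on day 4 and 3.62 ± 2.39 on day 3.

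Sox21, the SoxB2 gene, had the largest standard error of the 6 genes and did not pass. Probe set 1437059_at had 4.64, 39.8 and 28.9 on the day 4 arrays and 24.5, 32.4 and 9.29 on the day 3 arrays, with 1 array of each day under the level. The log2 change was -0.15 ± 0.78 (limma, adjusted p = 0.912; 95% confidence interval -1.90 to 1.59) and turned to 0.80 without day 4 replicate 1 (adjusted p = 0.249). Its other probe set, 1451835_at, had 9.18, 4.06 and 7.26 at day 4 and 0.81, 2.46 and 0.916 at day 3. These days did not overlap, but all 6 values were under the level, so no fold is given.

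Sox9 was at low signal on all of its 3 probe sets, and no call was made. Probe set 1451538_at had 33.3, 36.2 and 24.6 on the day 4 arrays and 24.5, 11.5 and 25.4 on the day 3 arrays, which overlapped at the lowest day 4 array. The log2 change of 0.68 ± 0.36, close in size to that of Sox11 but with a wider error, did not pass (limma, adjusted p = 0.203; 95% confidence interval -0.12 to 1.49). Without day 3 replicate 2, the lowest array, it was 0.31. Probe set 1424950_at had 10.4, 13.2 and 12.5 at day 4, above 8.02, 5.99 and 4.94 at day 3 on every array, but under the level on both days. The third, 1433889_at, was at 4.54 ± 1.55 on day 4 and 8.07 ± 7.89 on day 3.

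**Figure D4:**
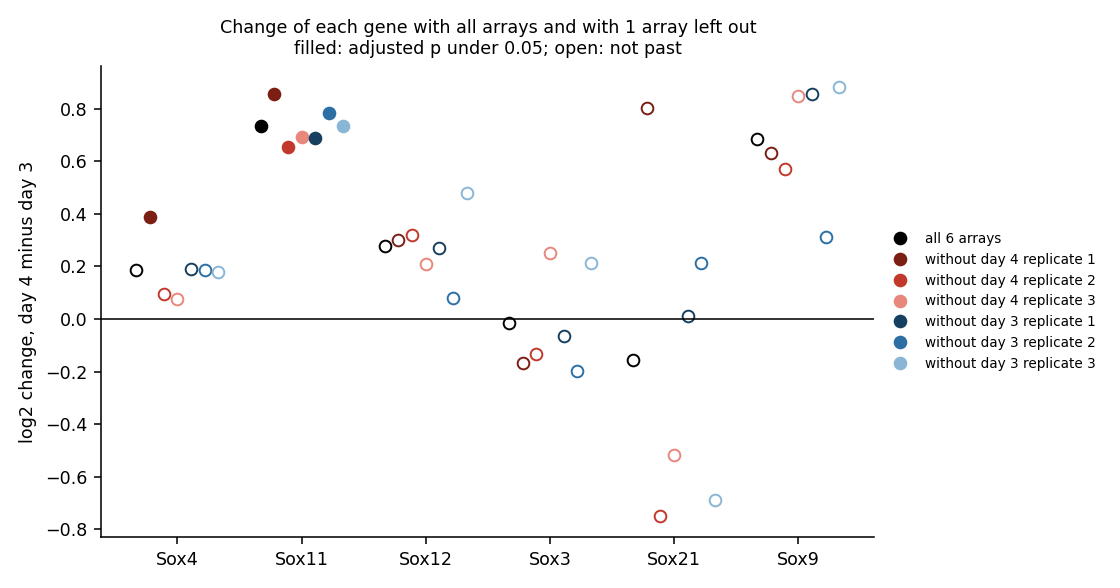
Log2 change of the 6 genes (y axis, day 4 minus day 3) with all arrays in black and with 1 array left out in colour; filled points passed an adjusted p of 0.05. Sox11 passed in every fit shown, at 0.66 to 0.86, Sox4 passed only without day 4 replicate 1, and Sox3 and Sox21 changed sign.

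The rest of the Sox family was set beside the members. Of 14 other Sox genes on the array, 6 were above the level, of which 0 were higher and 2 lower at day 4, with a median log2 change of -0.59, against -0.01 over all genes tested. Of all genes, 10.7% were lower, and the count of 2 was 1 without any single array other than day 4 replicate 3. Sox2, the SoxB1 factor of pluripotent cells, had 71.9, 94.0 and 105 on the day 4 arrays and 116, 208 and 142 on the day 3 arrays, and fell by 0.75 ± 0.22 on the log2 scale (limma, adjusted p = 0.0389). The call of Sox2 was lost without day 4 replicate 1 or 2 or without day 3 replicate 2 or 3 (adjusted p = 0.057 to 0.129). Sox17, the SoxF factor of endoderm and endothelium, had 31.4, 10.0 and 19.1 on the day 4 arrays, against 84.4, 86.4 and 45.9 on the day 3 arrays. It fell by 1.93 ± 0.41 (limma, adjusted p = 0.00956), and missed the threshold without day 3 replicate 1 (adjusted p = 0.051). With the mean over its probe sets the change of Sox17 was -1.18. Sox10 and Sox13 did not pass, nor did Sox6 and Sox15. Sox1, the SoxB1 gene of the neural plate, was at 1.70 ± 0.87 on day 4 and 2.89 ± 0.84 on day 3, and Sox8, the SoxE relative of Sox9, at 1.12 ± 0.22 on day 4 and 3.72 ± 4.28 on day 3, all under the level. The differences between the changes of these genes and those of the members were not tested.

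**Figure D5:**
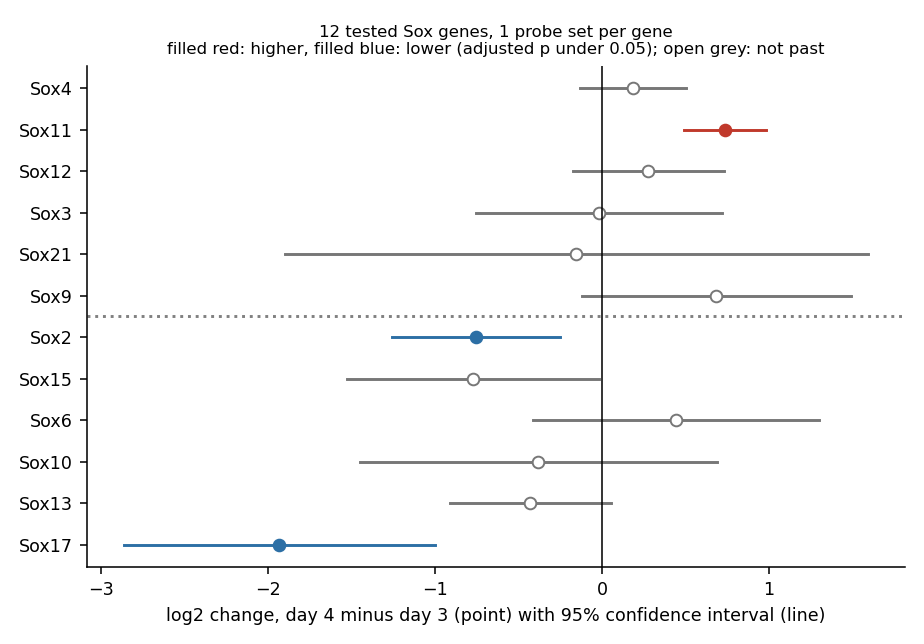
Log2 change, day 4 minus day 3 (x axis), with 95% confidence intervals, of the 12 Sox genes above the level, the 6 members over the dotted line and 6 others under it. Sox11 was higher (red), Sox2 and Sox17 were lower (blue), and the intervals of the other 9 include 0 or their adjusted p missed 0.05.

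Genes known from other tissues to act downstream of these factors were listed as context. Of all genes tested, 11.5% were higher and 10.7% lower at day 4. Of the 8 tested genes on the list of known SoxC targets, 0 were higher and 1 lower, with a median log2 change of -0.24, and without day 4 replicate 1 the counts were 2 and 2. Tead2, a TEAD-family factor of the Hippo pathway and a SoxC target in mouse mesenchyme, had 458, 777 and 766 at day 4 and 649, 672 and 616 at day 3 (log2 change 0.01 ± 0.18, limma adjusted p = 0.983), with replicate 1 again the lowest day 4 array. Nefl, a neurofilament gene, was the tested gene on that list that fell, at 62.3 ± 8.79 on day 4 and 423 ± 36.0 on day 3. The neuronal SoxC targets Tubb3 and Dcx were under the level and not tested. Tubb3, a neuronal tubulin, had 6.48, 2.71 and 2.64 on the day 4 arrays, against 22.5, 12.3 and 14.1 on the day 3 arrays, with no overlap. Its day 3 mean lay above the level, so it was at least 1.17-fold lower at day 4, and with no filter it passed (limma, adjusted p = 0.0387). With no filter 2 genes of the list were therefore lower, and the count of lower genes ran from 1 to 3 over the alternatives. Of 9 tested genes on the list of known SoxB1 targets, 0 were higher and 5 lower (median log2 change -0.76, and the same counts without day 4 replicate 1). They include Nes, an intermediate filament gene of progenitors (-0.76 ± 0.20), and Fabp7, a fatty acid carrier of neural progenitors (-1.33 ± 0.21), and the call of Nes was lost without any single array other than day 4 replicate 1 (adjusted p up to 0.0914). With the mean over its probe sets the change of Nes was -1.62. Several genes on this list, such as Pou5f1 and Nanog, are themselves pluripotency genes.

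For Sox9, 0 of 7 tested genes among its known targets and other chondrocyte genes changed in either direction, with a median log2 change of 0.14, and 7 more were under the level. For this list and the next, the shares over all genes tested were 11.5% higher and 10.7% lower. Col2a1, the cartilage collagen that Sox9 activates, was at 14.7 ± 2.41 on day 4 and 14.7 ± 7.10 on day 3 (limma, adjusted p = 0.871). Of 9 sclerotome genes on the array, 7 were under the level, and the 2 tested were both higher, Twist1 (149 ± 24.4 at day 4 and 71.9 ± 5.22 at day 3; limma, adjusted p = 0.00172) and Meox1 (at least 3.96-fold, adjusted p = 0.00237), both of which are also expressed in other parts of the somite. Meox1 was above the level through its day 4 arrays alone, with means of 55.3 ± 16.0 at day 4 and 8.55 ± 4.90 at day 3. Foxc2 was at 68.6 ± 12.7 on day 4 and 1.33 ± 0.28 on day 3, at least 5.04-fold higher. It was not tested in the main fit, since its low day 3 signals took its mean under the level. With no filter it passed (limma, adjusted p = 0.000115), and 3 sclerotome genes were then higher. Pax1, which marks sclerotome proper, was at 5.29 ± 5.20 on day 4 and 2.53 ± 0.37 on day 3, under the level.

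Markers of cells in which these Sox factors are known to act, and which the gate could hold, were measured in the same fit. All 11 presomitic genes were above the level, of which 3 were higher, 1 lower and 7 not past the threshold, with summed signals of 10084 to 10583 at day 4 and 8151 to 8559 at day 3. Much of the difference between these sums came from Rspo3, at 2695 ± 257 on day 4 and 1275 ± 39.3 on day 3. Since 12285 of 18193 genes, 5 of 5 endoderm markers and 7 of 8 ES cell markers were also above the level, the place of the presomitic genes above it does not show that other cells were absent. Without detection calls, it does not show that each gene was detected either. Msgn1, the gene of the sort reporter, had 25.2, 36.2 and 38.3 on the day 4 arrays and 83.0, 57.2 and 83.4 on the day 3 arrays, and fell by 1.17 ± 0.24 (limma, adjusted p = 0.00723). Of 7 neural markers on the array, 6 were under the level, Sox1, Neurog2, Neurod1, Olig2, Nkx6-1 and Hes5, and Pax6 was tested and did not pass. The sum of all 7 was 44.0 to 50.2 at day 4 and 52.2 to 75.6 at day 3. Hes5 went the other way from the sum, at 14.9 ± 2.25 on day 4 and 9.02 ± 5.31 on day 3. Of 6 neural crest markers, 4 were tested, with 0 higher and 1 lower and sums of 185 to 205 at day 4 and 246 to 294 at day 3. Of 3 node and notochord markers, 2 were tested, with 0 higher and 1 lower (58.1 to 74.7 at day 4 and 93.3 to 106 at day 3). Of 5 endoderm markers, 0 were higher and 3 lower (348 to 422 at day 4 and 650.1 to 654 at day 3). Of 4 chondrocyte markers, 3 were tested and 0 changed (53.0 to 67.6 at day 4 and 59.9 to 88.6 at day 3). Of 7 tested markers of undifferentiated ES cells, 1 was higher and 2 lower (870 to 952 at day 4 and 981 to 1123 at day 3). The count of lower neural crest markers was 0 without day 4 replicate 2 or any single day 3 array, and that of lower ES cell markers was 1 without any single array other than the replicate 1 arrays of both days. On the wider lists, 2 of 12 tested neural plate genes were higher and 3 lower, 3 of 10 neural crest genes were higher and 3 lower, 0 of 5 node genes were higher and 2 lower, and 0 of 10 caudal epiblast genes were higher and 6 lower, where 11.5% of all genes tested were higher and 10.7% lower. Without single arrays the neural plate counts were 1 to 2 higher and 1 to 2 lower, with 1 and 1 without day 3 replicate 2 or 3, and the node count was 1 lower without day 3 replicate 1. With the mean over probe sets the neural crest counts were 1 higher and 0 lower. The sums of the wider neural plate and neural crest lists overlapped between the days, at 1336 to 1526 and 1960 to 2277 on day 4, against 1225 to 1385 and 1874 to 2040 on day 3. The lists share genes, so their counts are not separate results. The lower neural plate genes were Sox2, Nes and Fabp7, which are also on the Sox family or SoxB1 target lists. Foxa2 and Sox17 were lower in both the node and the endoderm counts. The part of these cell types in the Sox changes was not tested.

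The genes whose signal ran most like each member over the 6 arrays were found among 7782 tested genes with a log2 range of at least 0.5. For Sox11 these were Hp1bp3 (Pearson r = 0.998), Ddx19b (0.997) and Insr, the insulin receptor (0.997), each higher at day 4 (log2 changes of 0.58, 0.46 and 1.01; limma, adjusted p = 0.00315, 0.0222 and 0.00185). Sox11 separated the days, so this direction follows from how the genes were picked. Their p-values are no separate support for the change of Sox11. The call of Ddx19b was lost without any single array other than day 4 replicate 1 (adjusted p up to 0.0838), and with the mean over probe sets Ddx19b and Insr were at -0.93 and -0.087. For Sox4 they were Slc25a24, Glb1l and Klhl2 (r = 0.996, 0.990 and 0.988), all lowest on day 4 replicate 1. For Sox12 they were Nprl2, Tnni3 and Gatd1 (r = 0.988, 0.983 and 0.973), and for Sox9 Ahrr, Mall and Dok3 (r = 0.992, 0.984 and 0.979). For Sox3 they were Nptx1, Prss39 and Psd4 (r = 0.978, 0.969 and 0.965), and for Sox21 Phka1, Bcas3 and Slc35d2 (r = 0.992, 0.975 and 0.966). The values of each pair come from the same 6 arrays and were searched over many genes, so high correlations arise among unrelated genes too and are given as a description.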

How the data were processed

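RNA of the 6 sorted samples went through Affymetrix two-cycle labelling, per the labels' protocols, which name 2 extraction methods (Trizol and an RNeasy kit) without assigning them to samples. The deposited values are linear signal intensities from MAS5, per the submitters' processing notes. The MAS5 version and scaling target were not given in the sources used here. Two-cycle amplification favours 3′ ends, and log2 values of dim MAS5 signals are noisy.

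Probe sets were named from the platform annotation (34958 with 1 symbol, 932 with several, left unnamed, and 9211 with none listed), and Entrez identifiers matched to RefSeq on GRCm38.p6 changed 0 symbols. Control probe sets (64) were left out of the tests. Log2 signals were fitted in R 4.3.3 with limma 3.58.1 (lmFit and eBayes with trend, day as the only term, 2-sided, Benjamini-Hochberg, threshold 0.05). Each gene was represented by its probe set of highest mean log2 signal, and 12285 of 18193 genes above the 40th percentile were tested. The same model was fitted to 27026 single probe sets. Where 1 day's mean lay under the level of 13.5, a fold is given as "at least", with dim arrays set to that level. Errors are SD for signals and SE for changes.

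Named genes were drawn from the 6 members, Msgn1, the other Sox genes, Tead2 and Col2a1. Also eligible were up to 4 genes of smallest p per list and the 3 genes of highest Pearson r per member. Not every eligible gene is printed, among them Sox5, Sox7, Sox18, Sox30, Sry and the caudal epiblast genes. Pax1, Foxc2, Tubb3, Dcx and neural markers under the level other than Sox1 were named after their values were seen. The members and lists were chosen with earlier results of these data known.

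Alternatives were an offset of 4.14 before log2, median centring, quantile normalization, a filter at the 60th percentile, no filter, averaging a gene's probe sets, leaving out _x_at, _s_at and _a_at probe sets, eBayes without trend, array weights, a replicate block, a threshold of 0.10 and leaving out each array. Correlations of log2 signal were 0.933 to 0.948 within days and 0.924 to 0.939 between days, and no 2 arrays held identical values. The labels call the samples biological replicates, and their number limits the precision.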

Additional observations from a re-analysis of the deposited data

How the results depend on the processing

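Sox11 was higher at day 4 in each of the 17 alternatives, by 0.50 (mean over probe sets, adjusted p = 0.0434) to 0.86 on the log2 scale. Sox12 and Sox9 missed the threshold in each alternative that tested them, at 0.080 to 0.48 and 0.31 to 0.88; with a filter at the 60th percentile or the mean over probe sets, Sox9, Sox3 and Sox21 were under the filter. With array weights, Sox4 passed (0.34, adjusted p = 0.00631) and Sox21 was at 0.84, and without single arrays Sox4 ran from 0.075 to 0.39, Sox21 from -0.75 to 0.80 and Sox3 from -0.20 to 0.25. The member genes called higher were 2 with array weights, where Sox4 joined Sox11, and 1 to 2 without single arrays. Member probe sets called higher were 3 with eBayes without trend, 8 with array weights and 2 to 8 without single arrays, the most without day 4 replicate 1. Genes called higher numbered 865 with the mean over probe sets and 2163 with array weights, where 2149 were lower; without single arrays they were 866 to 1750 higher and 716 to 1780 lower. The cause of these shifts was not tested.

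Without single arrays, the Sox4 probe sets 1419157_at, 1449370_at and 1455867_at ran from -0.11 to 0.95, -0.11 to 0.51 and -0.24 to 0.0056, Col2a1 from -0.37 to 0.41 and Tead2 from -0.12 to 0.26. Col2a1 was at -0.099 with array weights, Tead2 at -0.025 with median centring and Msx1, a neural crest gene called higher, at -0.063 without the suffixed probe sets. With the mean over probe sets, Ddx19b and Insr were at -0.93 and -0.087. Whether replicate numbers pair the samples was not settled. Deviations of same-numbered arrays correlated at 0.067, 0.011 and -0.00051, but so few arrays per day cannot exclude a pairing. The replicate block left the member calls as they were (Sox11 0.74, adjusted p = 0.000762), with 6 member probe sets higher. Without detection calls, changes of probe sets near a signal of 13.5 are limited by dim signal.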
